A study of Rattus norvegicus with 20 samples.

Results

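MicroRNA-126 (miR-126a in the rat) was followed as both of its mature arms, rno-miR-126a-3p and rno-miR-126a-5p (written below without the species prefix), in rat kidneys after aristolochic acid I (AAI), a nephrotoxic plant acid. The 2 arms were chosen by name, as the rows of the scanner files that carry either arm's name, and are 2 of the 719 rat miRNAs on the array. Male Wistar rats of 80 to 100 g received AAI by intraperitoneal injection at 40 mg per kg body weight, and 5 kidneys each were taken at each of 3 times (day 2, 4 or 6). The vehicle group was 5 kidneys from male Wistar rats given PEG400 diluted in water on the same schedule and taken on day 6, so the day 2 and day 4 groups had no vehicle group of their own day. No further allele or agent is named in the labels, and the Cy3-labelled total RNA of each kidney filled 1 array, for a total of 20 arrays in 4 groups. The labels number the kidneys within a group and do not say more about their origin, so p-values measure the spread between these samples.

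In mammals the miR-126 precursor lies inside Egfl7, a gene for a protein that endothelial cells secrete, and the miRNA is among the most endothelial-enriched ones known. It is also carried by platelets and found in plasma. The 3p arm is known to repress Spred1 and Pik3r2, inhibitors of signalling downstream of the VEGF receptor (mouse and zebrafish), and the adhesion molecule Vcam1 (human). The 5p arm is known to repress Dlk1, an inhibitor of Notch signalling, in mouse endothelial cells. These arrays measured RNA from whole kidneys, so fewer endothelial cells and less miR-126a per cell cannot be told apart.

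The sequences of both arms are shown because the array measured each with its own probes and because the arms have different target seeds. The third miRNA, miR-126b, is read from the opposite strand of the same locus. Mature sequences are RefSeq's on build GRCr8, written 5′ to 3′, with the seed (bases 2 to 8) in capitals.
miR-126a-5p: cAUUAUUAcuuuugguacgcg
miR-126a-3p: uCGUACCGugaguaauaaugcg
miR-126b: uACCAAAAguaauaaugugcug
In GRCr8 the 5p arm lies at chr3:29813182-29813202 and the 3p arm at chr3:29813219-29813240, both on the plus strand, with 16 bases between them. Both lie within the span of Egfl7 (chr3:29802481-29814966). MiR-126b lies at chr3:29813177-29813198 on the minus strand and overlaps the 5p arm by 17 bases. RefSeq's current symbols run the other way round from the array's names: the gene with the symbol Mir126b (chr3:29813174-29813246) holds both miR-126a arms. None of the other mature miRNAs among the 693 in the rat table had either seed (0 for each arm), so neither arm has a seed relative there.

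The probes are shown because they set what each measurement can distinguish. They are DNA written 5′ to 3′ as the files give them, with capitals for the bases that pair with the seed.
miR-126a-5p probe: cgcgtaccaaaagTAATAATg
miR-126a-3p probe 1: cgcattattactcaCGG
miR-126a-3p probe 2: cgcattattactcaCGGT
The 5p probe was complementary to bases 1 to 21, the whole arm, and was printed as 20 spots per array. The 3p probes were complementary to bases 6 to 22 and 5 to 22, with 10 spots each per array, and so paired with 3 and 4 of the seed's 7 bases. In the files' own build, rn4, the 5p probe maps to chr3:4768125-4768145 and the 3p probes to chr3:4768167-4768183 and chr3:4768166-4768183.

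Both arms were detected on all 20 arrays. All 400 spots of the 5p probe and all 200 spots of each 3p probe were well above background over the series, and none was saturated (0 spots). MiR-126b was detected on 0 of 20 arrays, and 0 of the 200 spots of each of its probes were well above background. The 10 spots of a 3p probe on an array had a median coefficient of variation of 1.84% for the first probe and 3.30% for the second, and the 20 spots of the 5p probe had one of 3.30%. Background-subtracted signal, before any scaling, ran from 2600 to 4627 intensity units for the 3p arm (the sum of its probes) and from 96.5 to 196 for the 5p arm. The signals of the arms come from different probes and are not compared as amounts.

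Each array's signal was divided by that array's 75th percentile over the 231 miRNAs detected on all arrays, and log2 was taken. A level of 3 therefore means a signal 8 times that percentile on a given array. Differences between groups were tested with limma's moderated statistics in 1 fit over the 262 tested miRNAs, with Benjamini-Hochberg adjustment, and called at an adjusted p under 0.05. Among kidney-enriched miRNAs, miR-192-5p, miR-194-5p and miR-204-5p were detected on 20 of 20 arrays and miR-215 on 0. Since 231 miRNAs were detected on all arrays, this detection does not by itself identify the tissue. The arrays sat on 3 slides, with 4 vehicle arrays on slide 3, with 1 vehicle, 5 AAI day 2 and 2 AAI day 4 arrays on slide 2, and with 3 AAI day 4 and 5 AAI day 6 arrays on slide 1. Vehicle arrays and AAI day 6 arrays never shared a slide, so slide and treatment cannot be told apart directly in that comparison. The second AAI day 4 array stood apart, with 328 miRNAs detected against 250 to 308 on the others, and the slide-block and slide 2 values that it moves most are given with and without it.

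The miR-126a-3p level was nearly the same on all 5 vehicle arrays and lay below their range on all 5 AAI day 6 arrays, but the difference did not pass the test. The vehicle levels of miR-126a-3p were 3.13, 3.14, 3.13, 3.10 and 3.12, a mean of 3.12 ± 0.014 (SD, n = 5). The AAI day 6 levels of miR-126a-3p were 2.91, 3.07, 2.75, 2.91 and 2.96, a mean of 2.92 ± 0.116 (SD, n = 5). The vehicle arrays spanned less than any AAI group, and the highest day 6 array, the second, still lay below the lowest vehicle array. Of all tested miRNAs, 23.3% had groups that did not overlap in this comparison, and 26% were called, 18.7% as lower. The difference was -0.21 ± 0.07 (log2, SE), a day 6 level 0.867 times the vehicle level (95% interval 0.778 to 0.967), with limma's adjusted p of 0.0502 just outside the threshold. An exact permutation test of this difference alone gave p = 0.00794, two-sided, the smallest that 5 against 5 arrays allow, and 0.0952 after adjustment over 12 such tests of both arms.

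The side of the threshold on which the day 6 difference of miR-126a-3p lay depended on single arrays and on the setting. Its sign depended on the setting as well, with 27 of 30 alternatives below 0. The difference was 0.16 without scaling, 0.05 with scaling to labelling spike-ins and 0.01 with the software's total signal per miRNA. Without the second AAI day 6 array the difference was -0.24 with limma's adjusted p of 0.0226, and over the 10 fits that each left out 1 array it ran from -0.24 to -0.16 with adjusted p from 0.0226 to 0.144. With slide as a fixed block it was -0.44 (limma adjusted p = 0.0302), a value that rests on the vehicle array of slide 2 and on the AAI day 4 arrays that link the slides. The same fit without the second AAI day 4 array gave -0.32 (limma adjusted p = 0.159). With slide as a random block the difference was -0.30 (limma adjusted p = 0.0452, consensus correlation within slides 0.329). Without the second AAI day 4 array that fit gave -0.20 (limma adjusted p = 0.00363), with a consensus correlation of -0.08, so the slide correlation itself rests on that array.

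On day 2 and day 4 the miR-126a-3p level overlapped the vehicle range and no difference passed the test. The AAI day 2 levels were 3.15, 3.08, 2.97, 3.04 and 3.11, a mean of 3.07 ± 0.070 (SD, n = 5). The AAI day 4 levels were 3.01, 2.78, 3.16, 3.14 and 3.11, a mean of 3.04 ± 0.157 (SD, n = 5). On day 4 the 3 arrays of slide 1 lay within or above the vehicle range, and the 2 arrays of slide 2 lay below it. Against vehicle the log2 difference was -0.05 ± 0.07 on day 2 (limma adjusted p = 0.837), where 1.53% of tested miRNAs were called. It was -0.09 ± 0.07 on day 4 (limma adjusted p = 0.505), where 3.44% were called. Groups that did not overlap made up 4.2% of tested miRNAs on day 2 and 6.87% on day 4. The day 4 difference of miR-126a-3p was -0.02 without the second AAI day 4 array. The 95% intervals of the ratio to vehicle were 0.864 to 1.07 on day 2 and 0.845 to 1.05 on day 4.

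With percentile scaling the mean miR-126a-3p level ran in the order vehicle, AAI day 2, AAI day 4 and AAI day 6. No neighbours in that order differed beyond their spread. Without scaling, vehicle had the lowest mean, with differences from it of 0.24, 0.28 and 0.16 on days 2, 4 and 6. The step from day 2 to day 4 with percentile scaling was -0.03 (limma adjusted p = 0.989). In that comparison 0% of tested miRNAs were called (0 of 262 by limma, with 20 at an unadjusted p under 0.05). Without the second AAI day 4 array that step turned to 0.03, so the order of those days rests on 1 array. The step from day 4 to day 6 was -0.12 (limma adjusted p = 0.695), where 0.763% were called. From day 2 to day 6 the difference was -0.15 (limma adjusted p = 0.204), where 11.1% were called, and with slide as a fixed block it was -0.39 (limma adjusted p = 0.0173). The fixed-block value was -0.28 without the second AAI day 4 array and was no longer called (limma adjusted p = 0.216). An F test over the 4 groups in the same limma fit gave an adjusted p of 0.221.

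Within slide 1, the one slide with AAI day 6 arrays, the miR-126a-3p levels of the 3 AAI day 4 arrays (3.11 to 3.16) lay above those of the 5 AAI day 6 arrays (2.75 to 3.07). The difference was -0.22, with limma's adjusted p of 0.232 and an exact permutation p of 0.0357, two-sided, where the smallest possible was 0.0179. The share of all tested miRNAs that separated in this way within slide 1 was not counted, so the separation is given as a description only. Within slide 2 the AAI day 2 arrays differed from the 1 vehicle array by -0.05 in miR-126a-3p, and the 2 AAI day 4 arrays by -0.23 (limma adjusted p = 0.996 and 0.427). Without the second AAI day 4 array, which leaves 1 array on each side, the day 4 value was -0.11.

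The miR-126a-5p level passed the test in no comparison. It varied more between the arrays of AAI day 4 and of day 6 than between vehicle arrays, and on day 2 about as much as in vehicle. On day 4 the wider spread came mainly from the second array, as the others ran from -1.64 to -1.52. The vehicle levels of miR-126a-5p were -1.69, -1.63, -1.60, -1.56 and -1.59, a mean of -1.61 ± 0.051 (SD, n = 5). The AAI day 2 levels were -1.67, -1.63, -1.59, -1.74 and -1.71, a mean of -1.67 ± 0.058 (SD, n = 5). Vehicle and day 2 arrays covered nearly the same range. The AAI day 4 levels of miR-126a-5p were -1.64, -2.02, -1.52, -1.53 and -1.55, a mean of -1.65 ± 0.211 (SD, n = 5). The AAI day 6 levels were -1.79, -1.41, -1.94, -1.86 and -1.72, a mean of -1.75 ± 0.204 (SD, n = 5). The second AAI day 4 array held the lowest level of the series, and the second AAI day 6 array held the highest while its 4 companions lay below every vehicle array.

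**Figure D1:**
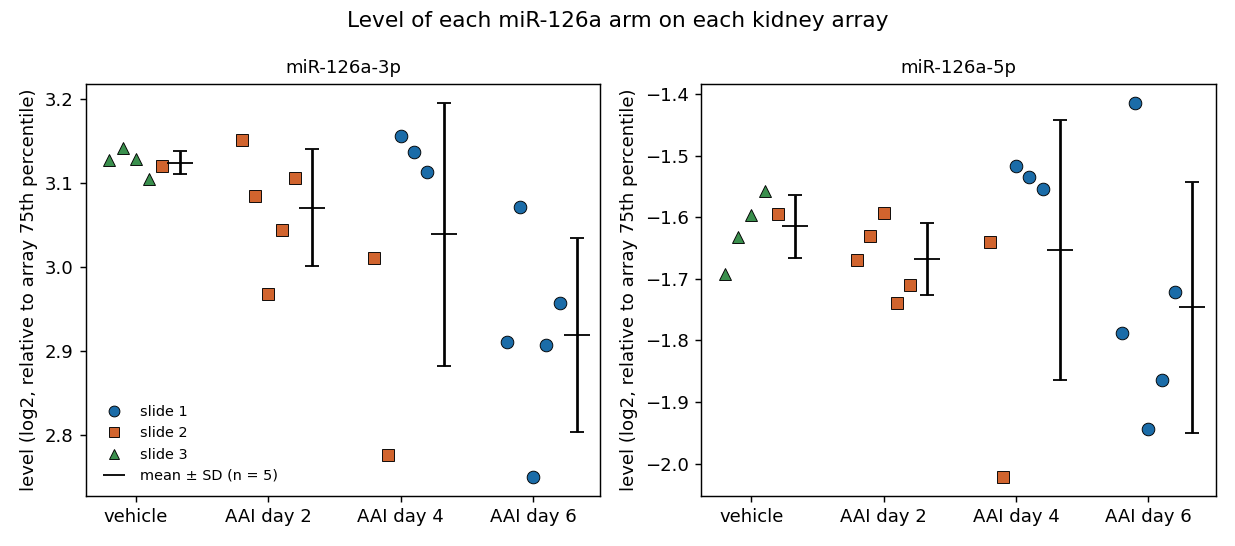
Level of miR-126a-3p (left) and miR-126a-5p (right) on each of the 20 arrays (vertical axes, log2 relative to the array's 75th percentile) by group, with symbols for the 3 slides and bars for mean ± SD (n = 5). All 5 AAI day 6 arrays lie below the vehicle range of miR-126a-3p (3.10 to 3.14), while for miR-126a-5p 1 day 6 array lies above it.

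Against vehicle the miR-126a-5p difference was -0.05 ± 0.10 on day 2, -0.04 ± 0.10 on day 4 and -0.13 ± 0.10 on day 6 (log2, SE), with limma's adjusted p of 0.890, 0.869 and 0.328. The day 6 level was 0.913 times the vehicle level, with a 95% interval of 0.790 to 1.06 that includes the 3p ratio of 0.867. Without the second AAI day 4 array the day 4 difference of miR-126a-5p turned to 0.05. Between AAI days the differences were 0.01 from day 2 to day 4, -0.09 from day 4 to day 6 and -0.08 from day 2 to day 6, and none was called (0 of 3 by limma, none at an unadjusted p under 0.05 either). The order of the means was vehicle, day 4, day 2 and day 6, and no neighbours differed beyond their spread. With slide as a fixed block the day 6 difference of miR-126a-5p was -0.45 (limma adjusted p = 0.0931), and -0.26 without the second AAI day 4 array (limma adjusted p = 0.414). Within slide 1 the day 6 arrays lay 0.21 below the day 4 arrays with an overlap (exact permutation p = 0.125).

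The direction of both arms against vehicle depended on how arrays were scaled. The 75th percentile itself, as log2 signal, averaged 8.51 in vehicle kidneys and 8.80, 8.87 and 8.88 on AAI days 2, 4 and 6, and no pair of groups passed the test in it (exact permutation tests, lowest adjusted p = 0.175). Without scaling, the day 6 difference was 0.16 for miR-126a-3p and 0.24 for miR-126a-5p, and with scaling to labelling spike-ins it was 0.05 and 0.12. The median of all 262 tested miRNAs moved with the scaling in the same comparison, from -0.11 with percentile scaling to 0.26 without scaling and 0.14 with spike-ins. Relative to that median, miR-126a-3p stood at -0.09 and miR-126a-5p at -0.02 under each of these 3 scalings. That match is arithmetic and tests nothing, since each scaling shifts all miRNAs of an array by the same log2 amount. Of the 262 miRNAs, 89 had a lower day 6 difference than the 3p arm and 126 a lower one than the 5p arm, so both arms lay in the middle part of the distribution. The split of called miRNAs moved as well, from 19 higher and 49 lower with percentile scaling to 33 and 1 without scaling and 21 and 2 with spike-ins.

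**Figure D2:**
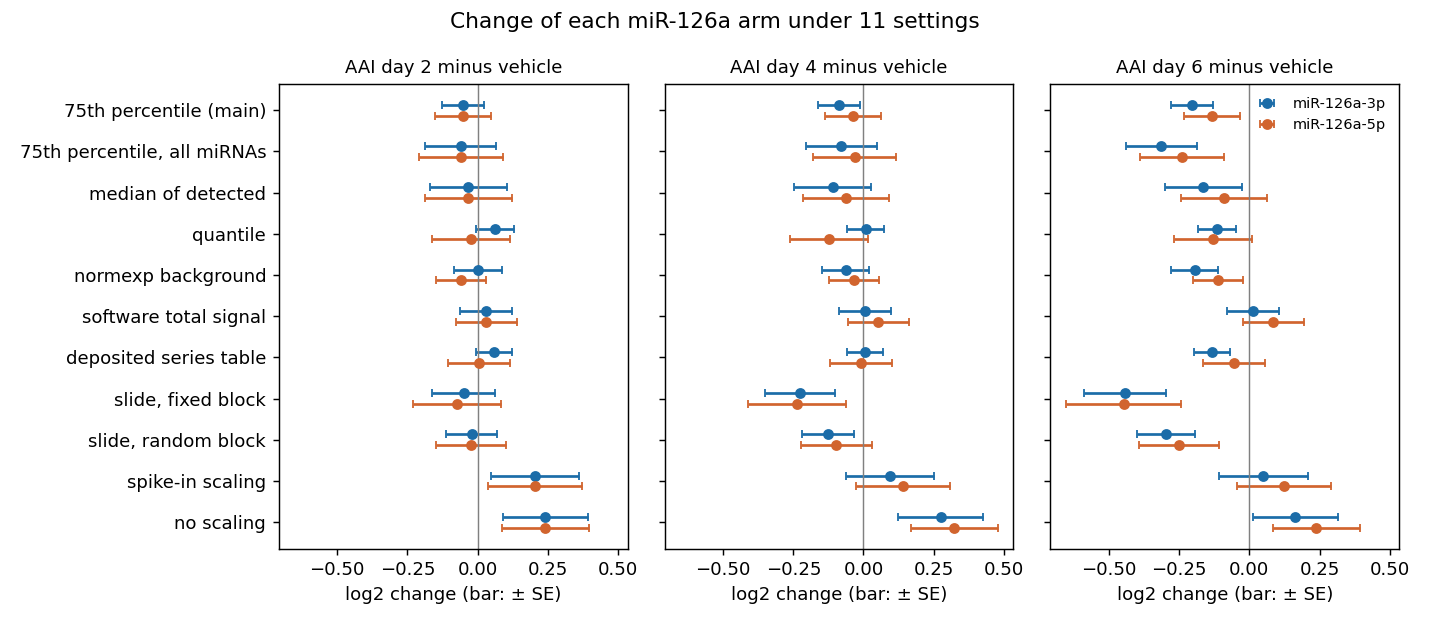
Log2 change of both arms against vehicle (horizontal axes, bars ± SE) on AAI day 2, 4 and 6 under 11 settings of scaling, background, probe summary and slide. On day 6 the 3p value runs from -0.44 with slide as a fixed block to 0.16 without scaling.

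The difference between the arms on an array is free of array scaling, since both arms share the scaling factor. The log2 arm difference, 3p minus 5p, averaged 4.74 ± 0.060 in vehicle, 4.74 ± 0.108 on day 2, 4.69 ± 0.060 on day 4 and 4.67 ± 0.107 on day 6 (SD, n = 5 each). Its size reflects the probes as well as the RNA and is not a ratio of amounts, so only its change between groups is read. The ranges of all 4 groups overlapped. Against vehicle the 3p-to-5p ratio changed by a factor of 1.00 on day 2 (95% interval 0.911 to 1.08), 0.968 on day 4 (0.911 to 1.03) and 0.950 on day 6 (0.867 to 1.03), with intervals from the inverted exact permutation test. The exact two-sided permutation p-values were 0.984, 0.238 and 0.214, and 0.984, 0.583 and 0.583 after adjustment over 6 comparisons. No change of the arm ratio was detected, and the values do not exclude a change within those intervals. The smallest change that 5 arrays per group could detect was not worked out.

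The 3p probes served as a limited check of the 3p measurement. They are complementary to bases 6 to 22 and 5 to 22, so they share nearly all of their target and are not independent. The log2 ratio of the shorter to the longer probe was -1.10 ± 0.036 over the 20 arrays (SD), with a range of -1.17 to -1.02. It passed none of 6 exact permutation tests between groups (lowest adjusted p = 0.190). Against vehicle on day 6 the shorter probe differed by -0.23 and the longer one by -0.19.

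**Figure D3:**
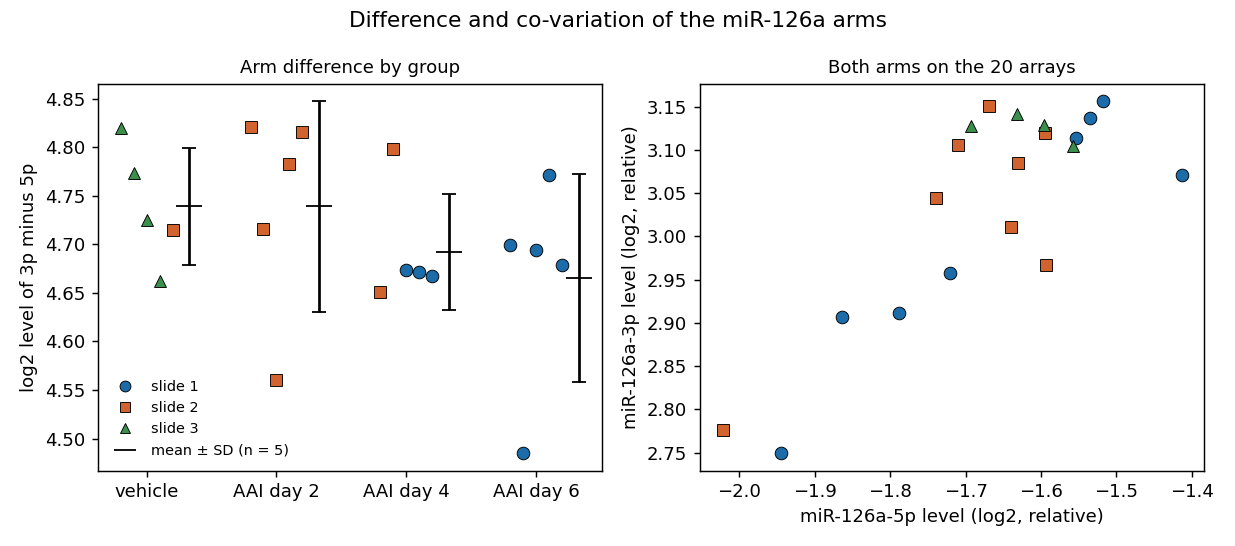
Left, log2 arm difference (3p minus 5p) on each array by group, with mean ± SD (n = 5). Right, miR-126a-3p level against miR-126a-5p level (both log2 relative to the 75th percentile) on the 20 arrays. The 4 group means lie between 4.67 and 4.74, and the lowest arrays of both arms lie together at the lower left.

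Across arrays the arms varied together. Over the 20 arrays Pearson's r was 0.812 (permutation p = 5e-05, adjusted 0.000113) and Spearman's rho 0.623 (permutation p = 0.00424, adjusted 0.00954), with adjustment over 9 such relations. Both levels share the array, its RNA and its scaling factor. After group means were removed r was 0.833, a value pooled over all 4 groups that does not describe each of them. In vehicle and on AAI day 2 the array with the lowest 3p level held the highest 5p level of its group. Those levels were 3.10 and -1.56 in vehicle, and 2.97 and -1.59 on day 2. Without the 2 arrays farthest from the median 3p level (the third AAI day 6 array and the second AAI day 4 array) r was 0.593 (permutation p = 0.00942, adjusted 0.0141) and rho 0.484 (adjusted p = 0.0680). Within slide 1 r was 0.919 over 8 arrays (permutation p = 0.00309), and 0.881 without its 2 farthest arrays (permutation p = 0.0569, adjusted 0.0732). Within slide 2 it was 0.764 over 8 arrays (permutation p = 0.0861) and 0.173 without the 2 farthest of them, so there the relation rests on those arrays.

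The tested miRNAs whose levels followed miR-126a-3p most closely over the 20 arrays were miR-196b-5p (r = 0.944), miR-27b-3p (0.940), miR-23b-3p (0.921), miR-99a-5p (0.915) and miR-186-5p (0.915). The median r over the 260 candidates was 0.393, and 39 of them had a higher r with miR-126a-3p than its own 5p arm had. With group means removed, miR-196b-5p (0.953), miR-186-5p (0.934) and miR-148b-3p (0.913) led. For miR-126a-5p the closest were miR-362-3p (0.907), miR-30e-5p (0.881), miR-30c-5p (0.869), miR-200a-3p (0.852) and miR-106b-5p (0.838), and 10 of 260 had a higher r than the 3p arm. With group means removed, miR-362-3p (0.915), miR-532-5p (0.884) and miR-30c-5p (0.871) led. The closest lists of the arms thus held no miRNA in common. On day 6 against vehicle, miR-196b-5p fell by 0.33 and miR-99a-5p by 0.31 on the log2 scale (limma adjusted p = 0.00568 and 0.0118). Without scaling those differences turned to 0.04 and 0.06, and with spike-ins they were -0.07 and -0.05.

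Among other miRNAs reported in endothelial cells or vessel growth, some were lower on day 6 and most did not pass the test. Of 20 such miRNAs, all tested, 6 were lower and 0 higher on day 6 than in vehicle, beside 18.7% lower among all tested miRNAs, and the list's median difference was -0.04 against -0.11 over all tested miRNAs. The 6 were miR-218a-5p (-0.47), miR-181b-5p (-0.44), miR-100-5p (-0.34), miR-181a-5p (-0.24), miR-23b-3p (-0.23) and miR-27b-3p (-0.22), all in log2. MiR-23b and miR-27b come from 1 cluster reported in angiogenic endothelium (mouse), and the miR-181 family regulates vascular inflammation (mouse). The difference of 2 of the 6 stayed below 0 without scaling and that of 3 of the 6 with spike-ins, so the direction of the rest depends on the scaling, as for both arms of miR-126a. MiR-221-3p and miR-222-3p, which restrain endothelial growth through the receptor Kit in human cells, had differences of 0.05 and 0.13 (limma adjusted p = 0.818 and 0.532). MiR-210-3p, induced by low oxygen, had a difference of 0.07 (limma adjusted p = 0.791). On day 2 and day 4, 0 of the 20 passed the limma test in either direction, where 1.53% and 3.44% of all tested miRNAs did.

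MiRNAs of other cell types were also lower in the comparison of day 6 with vehicle, in which 18.7% of all tested miRNAs were called lower. MiR-451-5p, a red cell miRNA that also marks blood in a tissue, fell by 2.73 on the log2 scale (limma adjusted p = 1.6e-05), and the summed level (log2, all members on the array) of the red cell and platelet list ran from -1.29 to 0.43 in vehicle and from -4.27 to -2.34 on day 6. It was the 1 tested member of the 3 listed ones on the array, and miR-144-5p was detected on 0 arrays. Of 6 tested leukocyte miRNAs, 2 were lower, miR-146a-5p (-0.72, and -0.35 without scaling) and miR-342-3p (-0.65, and -0.28 without scaling), and the summed level ran from 2.01 to 2.08 in vehicle and from 1.43 to 1.82 on day 6. Of 6 tested mural and stromal miRNAs, which mark pericytes, smooth muscle and fibroblasts, 1 was lower (miR-214-3p, -0.25, with a positive difference without scaling and with spike-ins), with summed levels of 3.08 to 3.28 and 2.87 to 3.19. MiR-145-3p and miR-1-3p of that list were detected on 0 arrays. Of 11 tested tubular and epithelial miRNAs 4 were lower (miR-192-3p, miR-192-5p, miR-194-5p and miR-204-5p), with differences of -0.81 to -0.42 that were -0.44 to -0.05 without scaling, and with summed levels of 5.17 to 5.24 in vehicle and 4.84 to 5.17 on day 6. The part of blood and of these cell types in the miR-126a-3p result was not tested. For scale, the p53-induced miR-34a-5p and the injury miRNAs miR-21-3p and miR-21-5p rose by 2.92, 2.81 and 1.11 on day 6.

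**Figure D4:**
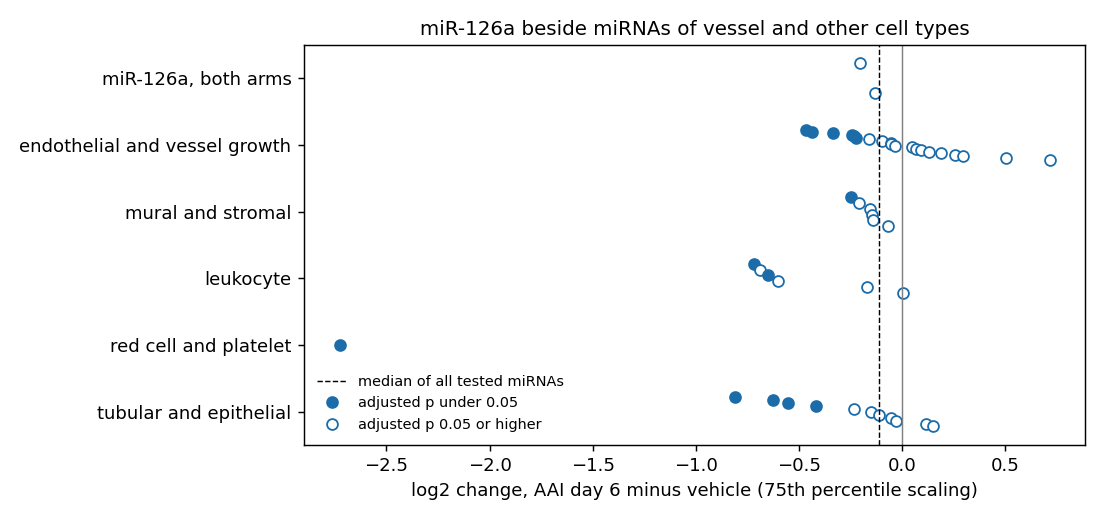
Log2 change from vehicle to AAI day 6 (horizontal axis, percentile scaling) of both miR-126a arms and of the tested members of 5 lists, 1 point per miRNA, filled where limma's adjusted p was under 0.05. The dashed line is the median of all 262 tested miRNAs (-0.11). Both miR-126a points are unfilled and lie close to that line, while the red cell miRNA miR-451-5p lies at -2.73.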

How the data were processed

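Kidney RNA was measured on 20 single-colour Agilent miRNA arrays. The arrays were read by Agilent Feature Extraction 10.7.1.1, per the file headers; the deposited spot values are background-subtracted intensity without scaling between arrays, and probe coordinates refer to rn4. The deposited flags for detection, outliers, saturation and background are of the other kind, 0 or 1. The authors' deposited series table holds log2 values, made in a way not given in the sources used here, so it served as an alternative only (of its entries, 262 of the tested miRNAs matched, and 0 of its value columns stayed unmapped).

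Background-subtracted spot signals were averaged per probe, without outlier-flagged spots, and added up per miRNA. It was divided by the array's 75th percentile over the 231 miRNAs detected on all arrays, since at most 45.6% passed detection on a single array. Values below 0.00640 (12 of 5240) were raised to that floor before log2. The 262 miRNAs with detection on every array of at least 1 group entered 1 model in limma 3.58.1 (R 4.3.3, with data.table in version 1.17.8) with all 4 groups, 16 residual and 2.17 prior degrees of freedom, and Benjamini-Hochberg adjustment within each contrast. Arm and probe differences were tested with two-sided exact permutation (252 splits), and correlations used 100000 permutations. The number of arrays limits the precision. The script was tested on simulated data.

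Both arms are always named. The miRNAs named for likeness are the 5 with the highest Pearson r over 20 arrays and the 3 with the highest after group means are removed. MiRNAs of the lists are given as counts, and any tested member may be named. The members and lists were chosen with earlier results of these data known. Replicate numbers did not pair the arrays: deviations of same-numbered arrays correlated at a median of -0.07 (-0.62 to 0.66), with 11 of 30 pairs over 0.1. Those of differently numbered arrays correlated at a median of 0.02 (-0.62 to 0.73), with 51 of 120 pairs over 0.1. Alternatives covered scaling, background, probe summary, detection filter, floor, slide, replicate block, samples in the fit, variance model, the series table, and leaving out arrays.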

Additional observations from a re-analysis of the deposited data

Results flagged for a closer look

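The second AAI day 4 array stood far from the other 4 of its group in 2 measures of miR-126a. Its miR-126a-5p level was -2.02, where the nearest of the others was -1.64. Its log2 arm difference was 4.798, where the nearest of the others was 4.67. The value 4.798 lies within the vehicle range of 4.66 to 4.82. The arm difference contains the 5p level, so the 2 measures are not independent. This array, on slide 2, also had the most detected miRNAs of the series (328). Chance marks about 1 in 20 groups in this way. No cause was tested.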

How the results depend on the processing

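Of 30 alternatives for the day 6 difference of miR-126a-3p from vehicle, 27 gave a value below 0 and 9 a limma adjusted p under 0.05. It passed with the mean of log2 probe values (-0.21, adjusted p = 0.0381), with only miRNAs detected on all arrays tested (-0.21, 0.0448), with only the compared groups fitted (-0.21, 0.0416), with a trended and robust variance model (-0.21, 0.0319), with a fixed (-0.44) or random (-0.30) slide block, and, chosen after seeing the data, with the floor at the lowest detected signal (-0.21, 0.0483), while a floor 2 times as high, also chosen then, gave 0.0508. The fixed block also called the 3p arm from day 2 to day 6 (-0.39), but without the second AAI day 4 array it did not (-0.28, 0.216). The random block without that array, chosen after seeing the data, called 3p on day 6 (-0.20, 0.00363) and from day 2 to day 6 (-0.14, 0.0305), and turned 3p from day 2 to day 4 (0.046) and 5p on day 4 (0.059). No comparison of miR-126a-5p or of the arm difference passed in any alternative. Directions of uncalled differences turned as follows, and the cause was not tested. Without scaling, the differences from vehicle on days 2, 4 and 6 were 0.24, 0.28 and 0.16 for 3p and 0.24, 0.32 and 0.24 for 5p, and 3p from day 2 to day 4 was 0.035. With spike-ins they were 0.20, 0.095 and 0.050 for 3p and 0.20, 0.14 and 0.12 for 5p. With the software's total signal they were 0.031, 0.0064 and 0.012 for 3p and 0.031, 0.053 and 0.085 for 5p, with 0.0052 (3p) and 0.032 (5p) from day 4 to day 6 and 0.054 (5p) from day 2 to day 6. Quantile normalization gave 0.061 and 0.0074 for 3p on days 2 and 4, values from the series table were 0.059 and 0.0055 for 3p and 0.0037 for 5p on day 2, and normexp gave 0.0012 for 3p on day 2. For 5p from day 2 to day 4, the median of detected miRNAs gave -0.030, spike-ins -0.061, quantile normalization -0.10, the fixed block -0.16 (0.029 without the second AAI day 4 array), the random block -0.074, slide 2 alone -0.16 and values of the series table gave -0.013. The arm difference on day 2 was 0.060 with normexp, 0.0013 with the mean of log2 probe values, 0.024 within slide 2 and 0.055 with the series table, and on day 4 it was 0.010 within slide 2 and 0.015 with the series table. With slide as a fixed block it was 0.0051 on day 6, with no p. Leaving out each array in turn gave -0.24 to -0.16 for 3p on day 6, -0.073 to 0.054 for 5p on day 4, -0.061 to 0.034 (3p) and -0.019 to 0.11 (5p) from day 2 to day 4, and arm differences of -0.021 to 0.044 on day 2 and -0.053 to 0.019 from day 4 to day 6. The array that turned 5p on day 4 and 3p from day 2 to day 4 was the second AAI day 4 array. The arm correlation within slide 2 was 0.764 and missed the threshold. Replicate number as a replicate block gave adjusted p = 0.0854 for 3p on day 6 and 65 called miRNAs against 68, changed no call of either arm, and in 11 of 60 comparisons of an array with another group it correlated best with its own number. The count of called miRNAs on day 6 was 34 without scaling and 23 with spike-ins. The AAI day 6 arrays shared a slide with neither vehicle nor AAI day 2 arrays, so no within-slide value exists for those comparisons. With 5 arrays per group, precision limits all of these values, and both arms lay well above background on every array.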

Other observations

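The 5 vehicle levels of miR-126a-3p had an SD of 0.014 after percentile scaling, while their unscaled signals ran from 2726 to 3956 intensity units, and the 75th percentile they were divided by ran from 312 to 452. The unscaled miR-126a-3p signal averaged 3198 ± 458 intensity units in vehicle, 3782 ± 557 on AAI day 2, 3881 ± 594 on day 4 and 3601 ± 589 on day 6 (SD, n = 5 each), and the groups overlapped.

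The annotation of the antisense miR-126b differs between sources. The files map its probes in rn4 over the 3p arm, while the RefSeq sequence of miR-126b in GRCr8 runs antisense to the 5p arm. MiR-126b shares a run of 10 bases (aguaauaaug) with miR-126a-3p. Its probes gave no signal on any array (0 of 20 detected) on which the 3p probes were well above background.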
